A study of Mus musculus with 12 samples.

Results

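Acyl-CoA synthetases join a fatty acid to coenzyme A at the cost of ATP, the step that holds the fatty acid inside the cell and opens the way to oxidation or to lipid synthesis. The Acsl genes encode the long-chain enzymes, and the Slc27a genes encode fatty acid transport proteins, which help fatty acids enter the cell and also carry synthetase activity. The heart draws most of its energy from fatty acids, and ACSL1 is the long-chain enzyme best known for feeding them to its mitochondria. The 7 genes described are Acsl1, Acsl3, Acsl4, Acsl5, Acsl6, Slc27a1 and Slc27a4. They were chosen by name, and each matched 1 of the 55401 rows of the deposited count table. Their identifiers there are ENSMUSG00000018796.13 (Acsl1), ENSMUSG00000032883.15 (Acsl3), ENSMUSG00000031278.12 (Acsl4), ENSMUSG00000024981.6 (Acsl5), ENSMUSG00000020333.17 (Acsl6), ENSMUSG00000031808.7 (Slc27a1) and ENSMUSG00000059316.2 (Slc27a4).

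The hearts of wild-type mice of the inbred C57BL/6J strain gave 12 libraries of bulk RNA: 3 of exercised females, 3 of sedentary females, 3 of exercised males and 3 of sedentary males. Exercise was treadmill running over 6 weeks, with 5 sessions a week of 45 min at 1 km/h, and sedentary mice of matching age stayed in the cage. No transgene, deletion or drug is named for any group, and neither the ages nor the trimming of the hearts were recorded in the labels used here. The labels do not say that each library came from its own animal, so a p-value here measures the spread between libraries, taken as 1 animal each.

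The libraries held 22204349 to 26607844 counts outside the 37 mitochondrial rows, which were at 0 in 11 libraries and held 27.3% of all counts in female sedentary 2. All 7 genes passed the low-count filter, which kept 16213 genes, with 157 to 26048 counts per gene and library. The tissue label held: Myh6, the cardiac myosin heavy chain, stood at 25525 to 30969 CPM (counts scaled to library size), and no library had any of 6 cardiomyocyte markers at 0. The sum of 6 red cell markers was 292.7 CPM for female exercised 2, 3630 and 1748 CPM for female sedentary 1 and 2 and 8.26 to 86.2 CPM elsewhere. The same 3 libraries held the atrial light chain Myl7, at 106.7, 65.6 and 23.0 CPM, where the other 9 had at most 2.33 CPM. In bulk tissue, fewer cells of a type and less RNA per cell cannot be told apart.

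The sequences below are shown because Acsl6 and Acsl1 are the genes among the 7 whose levels passed a test. Each is the window from 250 bases before to 50 bases after a start site in RefSeq, on the GRCm38.p6 build, written 5′ to 3′ along the plus strand, on which both genes lie. Capitals mark matches on either strand to the letters searched: AGGTCA (the PPAR half-site), AGAACA (the androgen receptor half-site), GGGCGG (the GC box), TATAAA (the TATA box) and CCAAT (the CAAT box).
Acsl6, the first window, chr11:54303574-54303873: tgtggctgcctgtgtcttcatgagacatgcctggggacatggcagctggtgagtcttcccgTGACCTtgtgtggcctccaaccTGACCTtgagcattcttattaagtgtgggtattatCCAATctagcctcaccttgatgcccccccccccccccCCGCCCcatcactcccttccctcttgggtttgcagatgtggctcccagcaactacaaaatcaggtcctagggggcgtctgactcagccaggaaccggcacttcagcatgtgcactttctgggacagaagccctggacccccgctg
Acsl6, the second window, chr11:54303954-54304253: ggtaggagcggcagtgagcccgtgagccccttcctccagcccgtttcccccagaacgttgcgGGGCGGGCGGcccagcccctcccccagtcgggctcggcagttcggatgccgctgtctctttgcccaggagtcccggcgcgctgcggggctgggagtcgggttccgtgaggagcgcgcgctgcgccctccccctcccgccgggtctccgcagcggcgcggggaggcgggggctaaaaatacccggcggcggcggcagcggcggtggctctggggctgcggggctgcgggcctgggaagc
Acsl6, the third window, chr11:54314653-54314952: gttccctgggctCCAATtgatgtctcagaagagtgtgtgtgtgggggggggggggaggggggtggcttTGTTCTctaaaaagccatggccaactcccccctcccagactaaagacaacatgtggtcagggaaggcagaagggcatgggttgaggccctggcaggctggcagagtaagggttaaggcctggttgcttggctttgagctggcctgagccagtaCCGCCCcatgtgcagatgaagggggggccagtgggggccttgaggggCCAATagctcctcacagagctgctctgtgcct
Acsl1, the first window, chr8:46470787-46471086: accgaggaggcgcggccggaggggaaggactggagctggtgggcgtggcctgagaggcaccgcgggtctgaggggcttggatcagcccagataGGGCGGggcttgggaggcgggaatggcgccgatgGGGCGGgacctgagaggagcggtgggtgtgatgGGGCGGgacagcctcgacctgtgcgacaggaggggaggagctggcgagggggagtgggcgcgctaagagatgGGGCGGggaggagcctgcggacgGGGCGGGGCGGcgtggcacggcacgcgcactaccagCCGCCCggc
Acsl1, the second window, chr8:46490716-46491015: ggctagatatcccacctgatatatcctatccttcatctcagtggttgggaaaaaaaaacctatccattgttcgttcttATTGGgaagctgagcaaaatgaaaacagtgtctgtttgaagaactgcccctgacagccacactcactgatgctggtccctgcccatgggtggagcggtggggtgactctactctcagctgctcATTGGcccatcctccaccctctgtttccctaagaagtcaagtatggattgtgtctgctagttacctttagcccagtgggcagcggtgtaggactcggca

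All 7 genes had at least 1 window, 12 in all. The first Acsl6 window held 2 matches to AGGTCA in reverse orientation, as TGACCT, and was the only 1 of the 12 with that motif, which 16.3% of 32851 mouse windows held. AGAACA matched in the third Acsl6 window and in the Acsl5 window, against 19.0% of all windows. GGGCGG matched in 9 of the 12 windows, against 35.7% of all, and in the second Acsl6 window its 2 matches overlap. CCAAT matched in 7 of the 12, against 37.4% of all. TATAAA matched in none of the 12 (13.6% of all), and neither the PPAR response element, 2 half-sites in a row with 1 base between (0.0396% of all), nor the palindromic oestrogen response element (0.07%) matched. These matches describe letters only, and gene counts do not tell which start site was used.

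Per length, 2 genes carried most of the transcripts of the 7. Levels between genes are given as CPM per kilobase of exons (RPKM), with all annotated exons of a gene merged. Acsl1, on chromosome 8 (46471037 to 46536051, plus strand, GRCm38), averaged 83.9 ± 9.68 RPKM over the 12 libraries (SD, n = 12). Slc27a1, also on chromosome 8 (71568882 to 71587302, plus strand), which encodes the insulin-responsive transport protein FATP1 of muscle and fat, averaged 32.9 ± 4.22 RPKM. Slc27a4 (chromosome 2, 29802634 to 29817522, plus strand), which encodes FATP4, the main transport protein of the gut and skin, averaged 5.88 ± 0.27 RPKM. These 3 ranges did not overlap each other.

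The other 4 genes were lower. Acsl5 (chromosome 19, 55251938 to 55297720, plus strand), a synthetase known from gut, liver and mitochondria, averaged 3.71 ± 0.422 RPKM (SD, n = 12). Acsl4 (chromosome X, 142317993 to 142390535, minus strand), which prefers arachidonic acid, averaged 2.64 ± 0.238 RPKM. Acsl3 (chromosome 1, 78657825 to 78707743, plus strand), which works at the endoplasmic reticulum and on growing lipid droplets, averaged 1.90 ± 0.289 RPKM. Acsl6 (chromosome 11, 54303798 to 54364756, plus strand), known from brain for activating docosahexaenoic acid, averaged 1.48 ± 0.43 RPKM. The range of Acsl5 lay above that of Acsl4, while the ranges of Acsl4 and Acsl3, and of Acsl3 and Acsl6, overlapped. The last 2 changed places when the longest transcript was the length (Acsl6 at 1.07% and Acsl3 at 0.908% of the summed level of the 7).

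**Figure D1:**
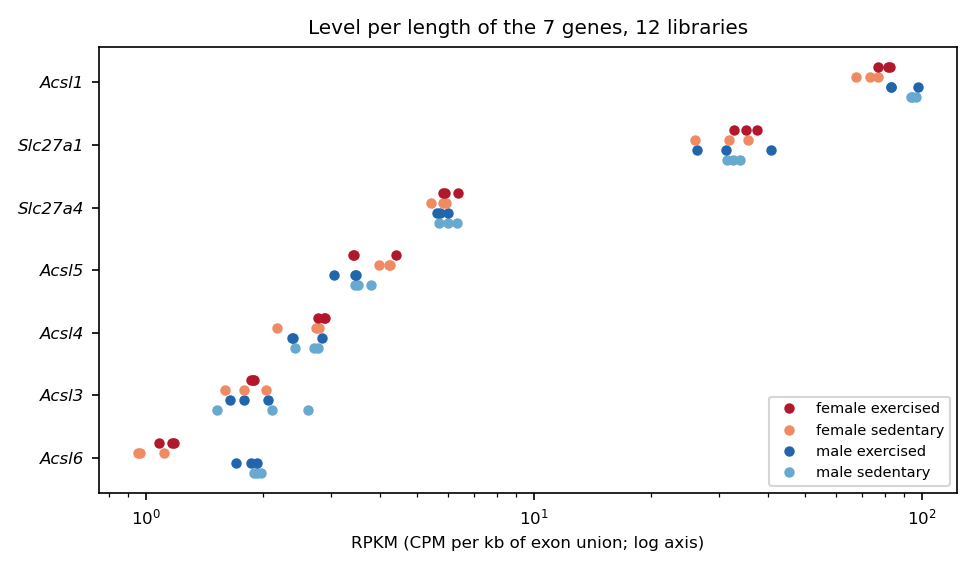
Level per length (RPKM, log axis) of the 7 genes, 1 point per library, with the 4 groups in separate rows. Acsl1 lies highest at 67.4 to 97.5 RPKM and Slc27a1 next at 26.0 to 40.8 RPKM. The female points of Acsl6 (0.954 to 1.18 RPKM) lie apart from its male points (1.70 to 1.98 RPKM). Those of Acsl1 lie next to each other without overlap (females up to 82.8 RPKM, males from 83.1 RPKM).

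Acsl1 made up 61.3% ± 1.14 of the summed RPKM of the 7 genes in exercised females and 61.0% ± 0.546 in sedentary females (SD, n = 3 each). Its share was 64.8% ± 1.73 in exercised males and 66.0% ± 0.579 in sedentary males. Slc27a1 made up 26.8% ± 1.46 and 26.1% ± 2.21 in exercised and sedentary females, and 23.9% ± 2.72 and 22.7% ± 0.719 in exercised and sedentary males. The summed level was 131 ± 4.40 RPKM in exercised and 119 ± 8.80 RPKM in sedentary females. In males it was 136 ± 15.9 RPKM in exercised and 144 ± 1.61 RPKM in sedentary hearts. The size of these shares depends on the length used: over all 12 libraries Acsl1 held 63.3%, against 66.5% with the longest transcript and 75.1% with the coding length.

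Sex set apart 2 of the 7 genes, and Acsl6 most. The question of how female and male hearts differ was asked in sedentary and in exercised mice, with edgeR's quasi-likelihood test and Benjamini-Hochberg adjustment over all 16213 genes, called under 0.05. Acsl6 was lower in females in both conditions. In sedentary hearts Acsl6 stood at 9.46, 9.55 and 11.05 CPM in the 3 females, against 18.8, 19.6 and 19.1 CPM in the 3 males. No female reached the lowest male. The log2 fold change of females over males was -0.94 ± 0.09 (SE), a fold of 0.523 with a 95% interval of 0.455 to 0.600 (adjusted p = 0.000159 by edgeR).

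In exercised hearts Acsl6 stood at 11.6, 11.7 and 10.7 CPM in the 3 females, against 19.1, 18.5 and 16.9 CPM in the 3 males. The groups again did not overlap. The log2 fold change was -0.68 ± 0.09 (SE), a fold of 0.625 with a 95% interval of 0.545 to 0.717 (adjusted p = 0.00461 by edgeR). The sex difference was 0.26 ± 0.13 smaller on the log2 scale in exercised than in sedentary hearts, a difference that did not pass (95% interval -0.02 to 0.54, adjusted p = 0.93 by edgeR). Without the 3 libraries that held Myl7 that difference was 0.09 ± 0.18. Ordered by p among all tested genes, X and Y genes included, Acsl6 was number 8 in sedentary and number 12 in exercised hearts. Among genes outside the sex chromosomes it was number 2 and number 4.

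Over both conditions the 6 females held 9.46 to 11.7 CPM of Acsl6 and the 6 males 16.9 to 19.6 CPM. All females lay below all males in 2.02% of the genes tested. Among the libraries that held Myl7, Acsl6 was at 11.7 CPM in female exercised 2 and at 9.46 and 9.55 CPM in female sedentary 1 and 2. Female sedentary 3, which held little of it, had 11.05 CPM of Acsl6. The 5 atrial markers summed to 250.6 to 386.9 CPM in sedentary females, against 54.1 to 135.6 CPM in sedentary males, and to 61.2 to 350.5 CPM in exercised females, against 38.3 to 81.7 CPM in exercised males. All sedentary females thus lay above all sedentary males in that sum, with at most 2 of the 5 markers at 0 in a library. In female sedentary 3 the sum came almost wholly from markers other than Myl7 (0.972 CPM) and Sln (0 CPM). Sedentary males had 0.415 to 1.52 CPM of Myl7. Others of the 10 marker lists did not overlap between the sexes either. Of all single genes, 12.8% were lower and 12.2% higher in females without overlap in sedentary hearts, and 7.54% and 6.79% in exercised hearts. In sedentary hearts 4 fibroblast markers summed to 633.9 to 724.9 CPM in females, against 607 to 616.6 CPM in males, and 6 adipocyte markers to 1.06 to 14.8 CPM in females, against 0.604 to 1.04 CPM in males. In exercised hearts 4 smooth muscle markers summed to 139.7 to 221.1 CPM in females, against 63.8 to 85.7 CPM in males, and 5 endothelial markers to 741.2 to 846.9 CPM in females, against 855.4 to 883.8 CPM in males. Schwann cell and neuron markers, 4 genes, summed to 8.62 to 9.32 CPM in exercised females, against 8.08 to 8.31 CPM in exercised males. The sums of cardiomyocyte, red cell, macrophage and skeletal muscle markers overlapped between the sexes in both conditions. The part of the marker lists in the sex differences was not tested. In the fit of the 9 libraries without the 3 that held Myl7, which keeps female sedentary 3 and its atrial sum of 250.6 CPM, the log2 fold change of Acsl6 was -0.80 ± 0.14 in sedentary (1 female left, adjusted p = 0.0794) and -0.70 ± 0.11 in exercised hearts (adjusted p = 0.0237). Leaving out each library in turn, the log2 fold change ran from -1.01 to -0.89 in sedentary and from -0.73 to -0.64 in exercised hearts, and passed in all 12 fits of each. In a fit of exercised females and males alone, the call in exercised hearts was lost (-0.68 ± 0.10, adjusted p = 0.0617). An antisense gene, Gm12224, shares 202 bases with the exons of Acsl6 and had 2 to 15 counts per library, against 243 to 497 of Acsl6.

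**Figure D2:**
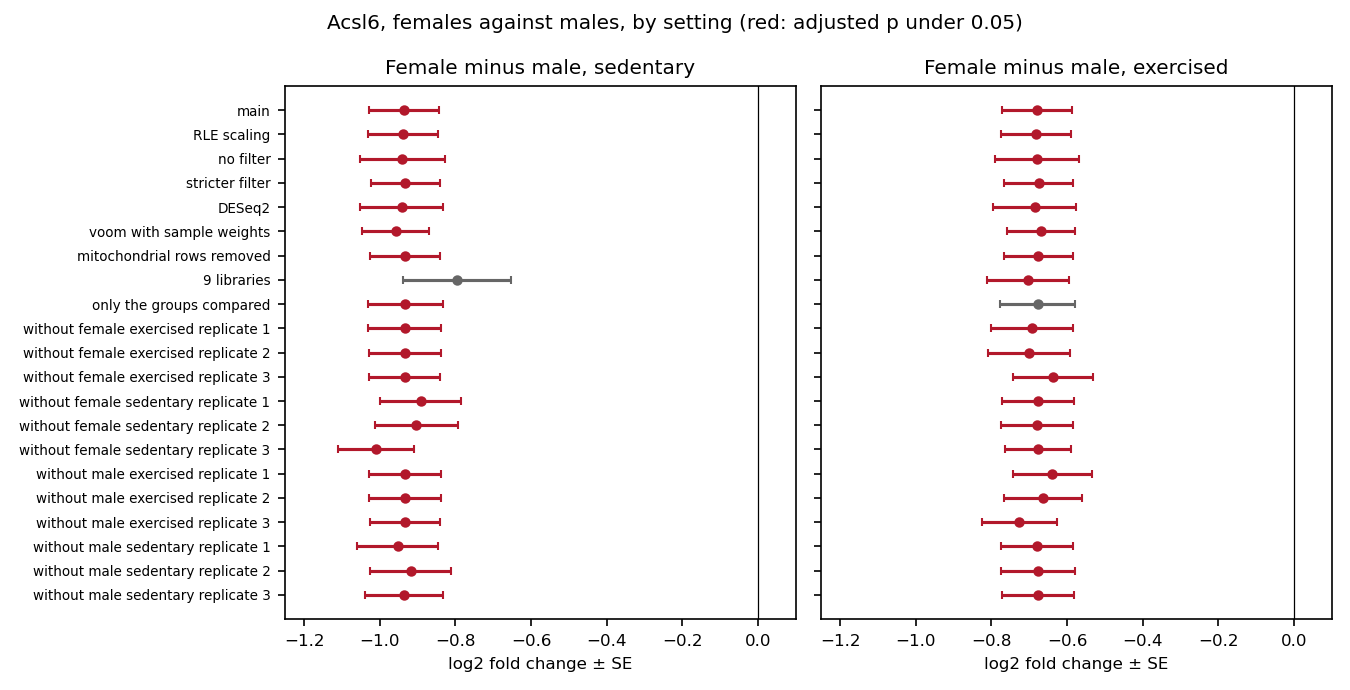
Log2 fold change of females over males for Acsl6 (point) with its SE (bar) in sedentary (left) and exercised hearts (right), 1 row per setting of the analysis, red where the adjusted p is under 0.05. Every point lies below 0, and the grey points are the fit of 9 libraries in sedentary hearts (-0.80) and the fit of the groups compared in exercised hearts (-0.68).

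Acsl1 was lower in females among sedentary mice. It stood at 805, 769.6 and 707 CPM in the 3 sedentary females, against 983, 987 and 1010.0 CPM in the 3 sedentary males. The groups did not overlap. The log2 fold change was -0.39 ± 0.07 (SE), a fold of 0.766 with a 95% interval of 0.687 to 0.853 (adjusted p = 0.0162 by edgeR). The call is close to the threshold: without any one of female sedentary 2 or 3 or male sedentary 1 or 3 the adjusted p was 0.0575, 0.0681, 0.0516 and 0.073, with log2 fold changes of -0.39, -0.33, -0.39 and -0.37. In the 9 libraries it was -0.49 ± 0.11 (adjusted p = 0.16). The opposite-strand gene Gm45244 shares 1039 bases with the exons of Acsl1 and had 0 to 9 counts per library.

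In exercised mice Acsl1 stood at 868, 806 and 857 CPM in females, against 1022, 870.9 and 871 CPM in males. The groups lay next to each other without overlap, and the difference did not pass (-0.13 ± 0.07, 95% interval -0.28 to 0.03, adjusted p = 0.607 by edgeR). Male exercised 1 is the library that sets this value: without it the log2 fold change was -0.04 ± 0.07. Whether the sex difference of Acsl1 itself differed between conditions did not pass after adjustment (0.26 ± 0.10, 95% interval 0.04 to 0.48, adjusted p = 0.93 by edgeR).

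In sedentary hearts 2 of the 7 genes were called, both lower in females, where 2.21% of all genes tested were called, 1.36% lower and 0.851% higher. Of the 7, 1 lay above 0, against 52.4% of all genes. The groups did not overlap in 3 of the 7, 2 lower and 1 higher in females, where 12.8% of all genes were lower and 12.2% higher without overlap. In exercised hearts 1 of the 7 was called, lower in females, where 0.160% of all genes were called, 0.0678% lower and 0.0925% higher. Of the 7, 5 lay above 0, against 50.8% of all genes. Groups did not overlap in 2, both lower in females, where 7.54% of all genes were lower and 6.79% higher without overlap. The median log2 fold change of the 7 was -0.07 in sedentary and 0.06 in exercised hearts, against 0.01 and 0.00 over all genes. Apart from Acsl6 and Acsl1, none of the 7 was called by edgeR, DESeq2 or voom in either condition.

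Acsl5 ran the other way in sedentary hearts. It stood at 19.4, 20.5 and 20.7 CPM in sedentary females, against 17.1, 16.8 and 18.5 CPM in sedentary males. The groups did not overlap, yet the difference did not pass (0.21 ± 0.10, 95% interval -0.02 to 0.43, adjusted p = 0.311 by edgeR). In exercised mice it stood at 16.7, 16.6 and 21.4 CPM in females, against 16.8, 14.8 and 16.9 CPM in males (0.17 ± 0.11, adjusted p = 0.634). Here female exercised 3 lay above the other 5 libraries and the groups overlapped, and without it the value was 0.04 ± 0.10. The opposite-strand gene Zdhhc6 shares 404 bases with the exons of Acsl5, which is 8.31% of them, and had 564 to 771 counts. Whether counting used strand is not stated, so reads of the shared bases cannot be assigned.

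Acsl4, the X-linked gene of the 7, did not pass the test between the sexes. It stood at 11.8, 14.8 and 15.1 CPM in sedentary females, against 14.6, 14.97 and 13.1 CPM in sedentary males (-0.04 ± 0.11, 95% interval -0.28 to 0.20, adjusted p = 0.89 by edgeR). In exercised mice the values were 15.5, 14.96 and 15.6 CPM in females, against 15.4, 12.9 and 12.8 CPM in males (0.16 ± 0.11, 95% interval -0.08 to 0.40, adjusted p = 0.678). Female sedentary 1 was the lowest of the 12 libraries, and the groups overlapped in both comparisons.

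Acsl3 and the transport proteins overlapped between the sexes as well. Acsl3 stood at 7.80, 6.95 and 8.88 CPM in sedentary females, against 11.4, 6.64 and 9.21 CPM in sedentary males (-0.21 ± 0.17, 95% interval -0.57 to 0.16). In exercised mice the log2 fold change of Acsl3 was 0.04 ± 0.17 (95% interval -0.33 to 0.40). Sedentary males held both its highest and its lowest value of the 12 libraries, and without male sedentary 1 the value in sedentary hearts was -0.008 ± 0.17. Slc27a4 had the narrowest spread of the 7, with a highest value 1.17 times its lowest over the 12 libraries, and its intervals for females over males were -0.23 to 0.09 in sedentary and -0.10 to 0.22 in exercised hearts. Slc27a1 stood at 208, 185 and 151 CPM in sedentary females, against 183, 198 and 190.3 CPM in sedentary males (-0.07 ± 0.14, 95% interval -0.38 to 0.25). Its log2 fold change was 0.10 ± 0.14 in exercised hearts (95% interval -0.21 to 0.42). In the 9 libraries the value in sedentary hearts was -0.33 ± 0.20, and without male exercised 1 that in exercised hearts was 0.29 ± 0.12. Acsl3 shares 244 bases of its exons with Utp14b on the same strand, which had 38 to 76 counts, against 157 to 301 of Acsl3.

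**Figure D3:**
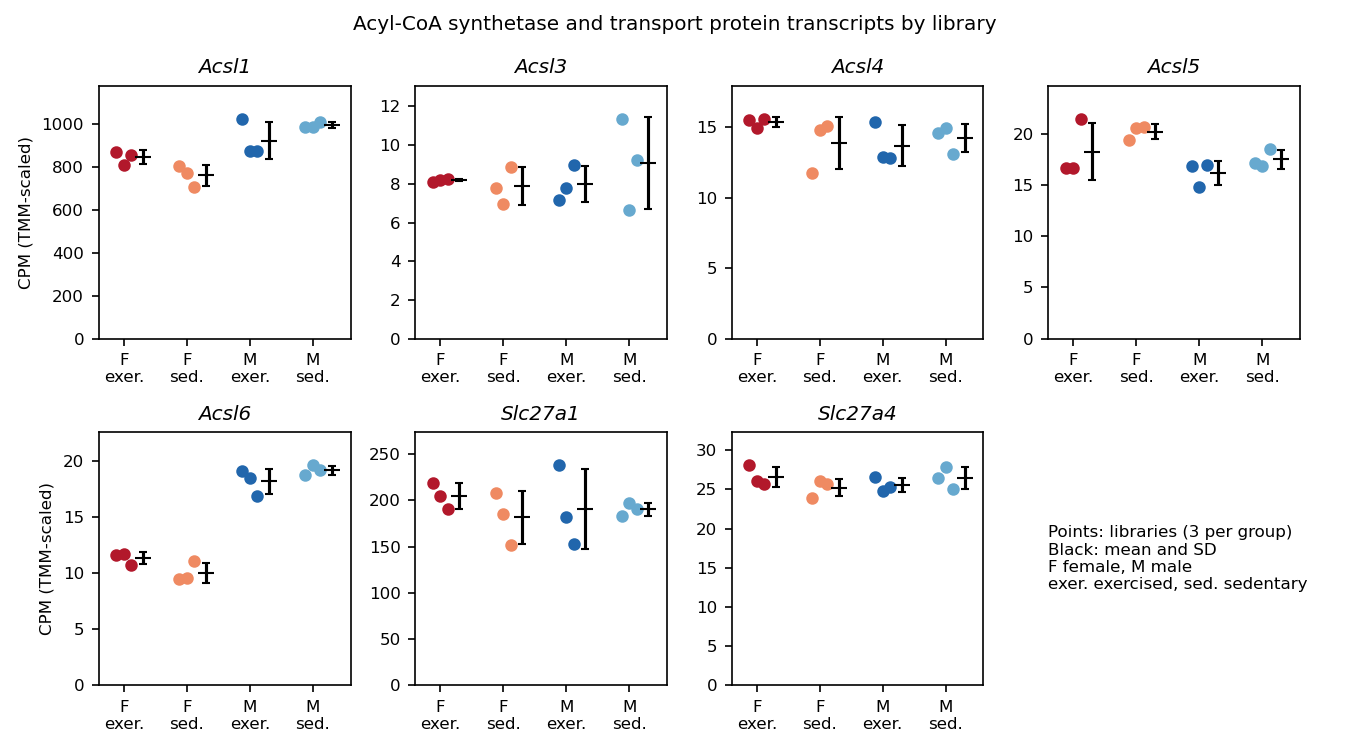
CPM of each gene by library (points) with the mean and SD of each group (black), exercised left of sedentary and females left of males, axes from 0. Acsl6 lies at 9.46 to 11.7 CPM in females and 16.9 to 19.6 CPM in males, Acsl1 at 707 to 868 CPM in females and 871 to 1022 CPM in males, and the other 5 genes overlap between the sexes.

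None of the 7 genes passed the test for treadmill running in either sex. The study's own description compares exercised with sedentary hearts, and its groups also cross exercise with sex. In females edgeR's quasi-likelihood test called 0 of the 7 (0 also at an unadjusted p under 0.05), where it called 0% of all genes, with 637 genes (3.93%) at an unadjusted p under 0.05. In males it called 0 of the 7 (0 unadjusted), where it called 0% of all genes, with 1271 (7.84%) unadjusted. DESeq2 and limma's voom also called 0 of the 7 in either sex, with 1 and 25 genes called by DESeq2 over the whole table in females and males and 0 by voom.

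Acsl1 was the 1 gene of the 7 whose female groups did not overlap. In exercised females it stood at 868, 806 and 857 CPM, and in sedentary females at 805, 769.6 and 707 CPM. The lowest exercised library (806 CPM) lay just above the highest sedentary one (805 CPM). The log2 fold change was 0.15 ± 0.07 (SE, 95% interval -0.01 to 0.30, adjusted p = 1 by edgeR). In the 9 libraries it was 0.29 ± 0.12 (adjusted p = 1), and in 5 of 20 alternative settings, this one and the fit without a filter among them, the unadjusted p was under 0.05. Over all genes 5.42% were higher and 4.37% lower without overlap. In males Acsl1 stood at 1022, 870.9 and 871 CPM in exercised hearts, against 983, 987 and 1010.0 CPM in sedentary hearts (-0.11 ± 0.07, 95% interval -0.26 to 0.05, adjusted p = 0.718). Male exercised 1 lay above all sedentary males and the other 2 below all of them. In males the groups overlapped in all 7 genes, where 6.17% of all genes were higher and 6.16% lower without overlap.

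Acsl6 in exercised females stood at 11.6, 11.7 and 10.7 CPM, and in sedentary females at 9.46, 9.55 and 11.05 CPM (0.18 ± 0.09, 95% interval -0.02 to 0.38, adjusted p = 1 by edgeR). The groups overlapped through female exercised 3 and female sedentary 3. In the 9 libraries the log2 fold change was 0.01 ± 0.15, and without female sedentary 3 it was 0.25 ± 0.10 (adjusted p = 1 by edgeR in both). In males it stood at 19.1, 18.5 and 16.9 CPM in exercised hearts, against 18.8, 19.6 and 19.1 CPM in sedentary hearts (-0.08 ± 0.09, 95% interval -0.27 to 0.12, adjusted p = 0.855). The interval in each sex leaves room for a change by exercise of up to 0.38, less than the sex difference in either condition.

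Slc27a1 in exercised females stood at 219, 205 and 191 CPM, and in sedentary females at 208, 185 and 151 CPM (0.17 ± 0.14, 95% interval -0.14 to 0.49). In males it stood at 238, 182 and 153 CPM in exercised hearts, against 183, 198 and 190.3 CPM in sedentary hearts (0.00 ± 0.14, 95% interval -0.31 to 0.32). In the 9 libraries the value in females was 0.44 ± 0.21, and without male exercised 1 the value in males was -0.185 ± 0.12. Exercised males spanned both the highest value and nearly the lowest of the 12 libraries. Acsl1 was also highest in male exercised 1, and within groups Slc27a1 and Acsl1 deviated together (Pearson's r = 0.867 of log2 CPM around the 4 group means, 12 libraries that share their depth and handling).

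Acsl3, Acsl4, Acsl5 and Slc27a4 had log2 fold changes for exercise between -0.15 and 0.15 in females and between -0.19 and -0.05 in males, each with an interval that includes 0. Single libraries moved some of them: Acsl5 in females was at -0.28 ± 0.10 without female exercised 3 (adjusted p = 0.99 by edgeR), and Acsl4 in females was at 0.04 ± 0.11 without female sedentary 1. Acsl3 in males was at -0.37 ± 0.15 without male sedentary 2 (adjusted p = 0.487 by edgeR) and at 0.01 ± 0.17 without male sedentary 1. The widest of these intervals were those of Acsl3, -0.31 to 0.42 in females and -0.55 to 0.18 in males. Acsl3 in exercised females was tightly grouped, at 8.12, 8.20 and 8.25 CPM, while sedentary males ran from 6.64 to 11.4 CPM. Slc27a4 stood at 28.1, 26.0 and 25.7 CPM in the exercised and at 24.0, 26.1 and 25.7 CPM in the sedentary females (0.08 ± 0.07). In males it stood at 26.5, 24.8 and 25.3 CPM with exercise and at 26.4, 27.9 and 25.04 CPM without (-0.05 ± 0.07). Its groups overlapped in both sexes, within the narrowest intervals of these 4 genes. Acsl5 stood lower on average in exercised than in sedentary hearts of both sexes, at 18.2 ± 2.76 against 20.2 ± 0.726 CPM in females and 16.2 ± 1.18 against 17.5 ± 0.908 CPM in males (SD, n = 3 each). Averaged over the sexes its log2 fold change was -0.13 ± 0.07 (adjusted p = 0.793 by edgeR). On that average edgeR called 0 of the 7 (0 unadjusted) and 0% of all genes, with 1018 genes (6.28%) at an unadjusted p under 0.05, and DESeq2 and voom also called 0 of the 7.

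In females 6 of the 7 log2 fold changes for exercise lay above 0 and in males 6 of 7 lay below, with medians of 0.15 and -0.08. Over all genes 50.1% lay above 0 in either sex, with medians of 0.00 and 0.00. The difference between the exercise effects was called in 0 of the 7, as in 0% of all genes, with 1 of the 7 (Acsl1) and 769 of 16213 genes (4.74%) at an unadjusted p under 0.05 by edgeR. Of the 7 differences 6 lay above 0, against 49.4% of all genes. DESeq2 called 0 of the 7 and 10 genes over the table, and voom called 0 of the 7 and 0 over the table.

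**Figure D4:**
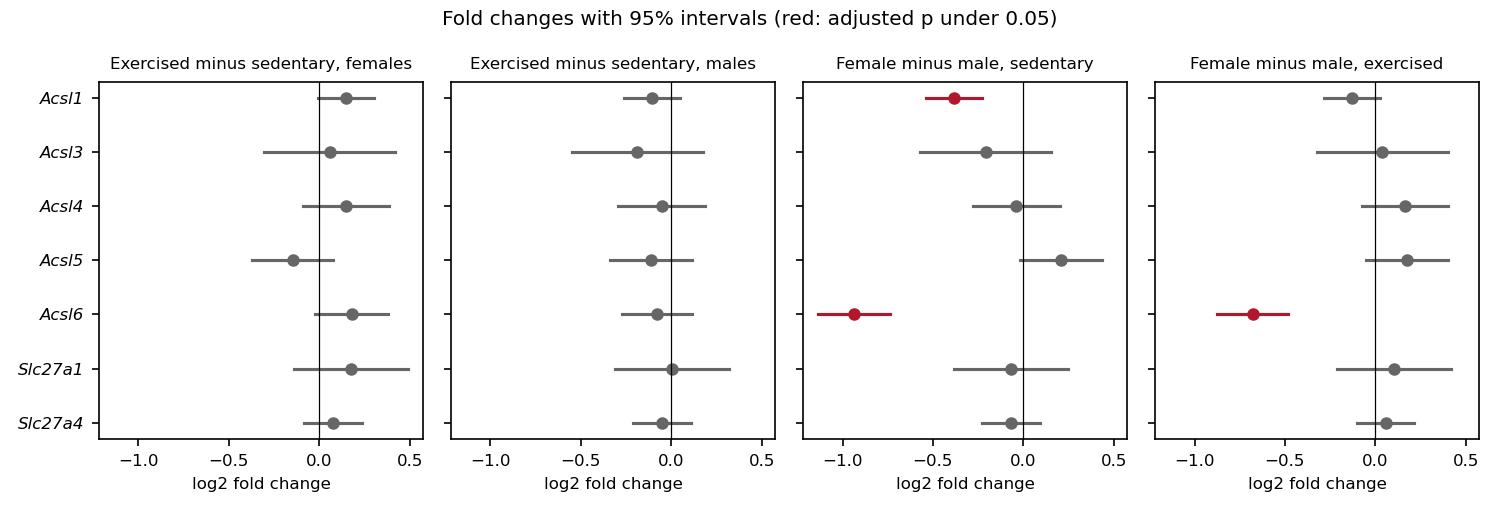
Log2 fold changes (points) with 95% intervals (bars) of the 7 genes for exercise in females and in males and for females over males in sedentary and exercised hearts, red where the adjusted p is under 0.05. Acsl6 is red at -0.94 and -0.68 and Acsl1 at -0.39 in sedentary hearts, and every interval for exercise includes 0.

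The genes whose levels ran most like each of the 7 over the 12 libraries were ranked by Pearson's r of log2 CPM, as a description of libraries that share sex, condition, depth and handling. Acsl1 ran most like Abcd3, an importer of acyl-CoA into peroxisomes (r = 0.969), Slc25a20, the carnitine carrier of mitochondria (0.964), and Vwa8, a mitochondrial ATPase (0.958). Acsl6 ran most like the Y-linked Ddx3y (0.989), Uty (0.984) and Eif2s3y (0.983), whose pattern is that of sex itself. Slc27a1 ran most like Slc25a22, a glutamate carrier of mitochondria (0.933), Helb (0.928) and P3h4 (0.899). Acsl5 ran most like Arsb, a lysosomal sulfatase (0.918), Tnfrsf1b, a receptor of tumour necrosis factor (0.913), and Gli2, a factor of the hedgehog pathway (0.906). For Acsl3, Acsl4 and Slc27a4 the highest r were 0.882 with Cbwd1, 0.843 with Tirap and 0.854 with Fahd1. Among the 7 themselves, Acsl1 and Acsl6 had r = 0.828 over the 12 libraries and -0.151 around the group means, and Acsl4 and Slc27a4 had 0.785 and 0.775.

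Of 17 other acyl-CoA synthetases of the mouse, 9 passed the filter, and 1 of them, Acsm5, was called by edgeR in sedentary females over males. The other transport proteins Slc27a2, Slc27a5 and Slc27a6 did not, with at most 8 counts in any library. Acss1, the mitochondrial acetate enzyme, had the highest level per length of the 17, at 96.4 RPKM. Acsm5, a mitochondrial enzyme of the medium-chain family, was lower in sedentary females, at 4.06 ± 1.27 CPM, against 10.6 ± 1.03 CPM in sedentary males (SD, n = 3 each). Its log2 fold change was -1.37 ± 0.22 (adjusted p = 0.00819 by edgeR), and it passed in all 12 fits that leave out 1 library and not in the 9 libraries (-1.855, adjusted p = 0.0529). In exercised hearts it stood at 4.65 ± 1.26 CPM in females and 8.02 ± 0.886 CPM in males (-0.79 ± 0.22, adjusted p = 0.228 by edgeR, 0.049 by DESeq2). The atrial marker sums of the sedentary females and the red cell transcripts of female sedentary 1 and 2, given above, stand beside these values too. Their part was not tested.

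In sedentary hearts 7 of these 9 synthetases lay below 0 in females, with a median of -0.18, where 52.4% of all genes lay above 0. By edgeR 1 of the 9 was called, where 2.21% of all genes were. At an unadjusted p under 0.05 were 4 of the 9, where 18.4% of all genes were. DESeq2 and the fit without a filter called 2, Acsm5 and Acss1, and voom called 1. Over the whole table DESeq2 called 866 genes there, the fit without a filter 370 and voom 458. Acss1 was at -0.23 ± 0.07 (adjusted p = 0.085 by edgeR). Acsf2, a medium-chain enzyme of mitochondria, was at -0.41 ± 0.16 (adjusted p = 0.191 by edgeR). For exercise all 9 lay above 0 in females and 4 in males, with medians of 0.18 and -0.07, where 50.1% of all genes lay above 0 in either sex. In either sex 0 of the 9 were called by edgeR, DESeq2 or voom. At an unadjusted p under 0.05 by edgeR were 0 in females and 1 in males, against 3.93% and 7.84% of all genes. Acsf3, the malonyl-CoA synthetase of mitochondria, had the smallest p of the list for exercise in each sex, at 24.7 ± 0.790 CPM in exercised against 22.3 ± 0.429 CPM in sedentary females (0.15 ± 0.07, adjusted p = 1 by edgeR). Its log2 fold change in males was 0.17 ± 0.07 (adjusted p = 0.627 by edgeR).

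Thioesterases undo the work of the synthetases by splitting acyl-CoA. Of 15 such genes 11 were tested, and edgeR called 0 in any of the 6 comparisons. At most 2 were at an unadjusted p under 0.05 in 1 comparison, exercised females over males, where 9.84% of all genes were. DESeq2 called 1, Acot7, in sedentary females over males, where it called 866 genes over the whole table, and voom 0. Their medians were 0.08 for exercise in females, -0.04 for exercise in males, and -0.14 and 0.11 for females over males in sedentary and exercised hearts. Acot7, the cytosolic brain-type enzyme, stood at 78.8 ± 4.51 CPM in sedentary females and 67.4 ± 1.41 CPM in sedentary males (0.23 ± 0.06, adjusted p = 0.0761 by edgeR). Acot1, a cytosolic enzyme, was at 27.3 ± 8.22 CPM in exercised against 17.4 ± 8.06 CPM in sedentary females (0.64 ± 0.37). Acot1 and Acot2 are close copies, and their counts are uncertain for that reason.

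Among genes that carry acyl-CoA or fatty acids, edgeR and voom called 2 in sedentary females over males, Abcd3 and Fabp3, and DESeq2 called 4. Over all genes tested, edgeR called 358 and voom 458 of 16213. DESeq2 called 866, with an unadjusted p for 33215 genes, of which its own low-count filter can leave some without an adjusted p. Of 9 genes of acyl-CoA binding and peroxisomal import, all tested, 1 was called lower in sedentary females, where 1.36% of all genes were. Of these 9, 7 lay below and 2 above 0, where 52.4% of all genes lay above 0. By edgeR 6 of the 9 were at an unadjusted p under 0.05, against 18.4% of all genes. Abcd3 stood at 106.5 ± 7.97 CPM in sedentary females and 147.7 ± 4.84 CPM in sedentary males (-0.47 ± 0.09, adjusted p = 0.0162 by edgeR). That call was lost without female sedentary 1 or 3 or male sedentary 3 (adjusted p = 0.0542, 0.0652 and 0.0817) and in the 9 libraries (-0.60, adjusted p = 0.147). Of 9 genes of fatty acid supply, all tested, 1 was called lower, 5 lay below 0 and 3 were at an unadjusted p under 0.05 by edgeR. Fabp3, the fatty acid carrier of heart muscle, stood at 2249 ± 143 CPM in sedentary females and 3087 ± 297 CPM in sedentary males (-0.46 ± 0.09, adjusted p = 0.023 by edgeR). It was lost without any of the 3 sedentary females or male sedentary 3 (adjusted p from 0.0522 to 0.113 by edgeR). It was also lost in the fit without a filter, which changed the quasi-likelihood method as well (adjusted p = 0.0905 by edgeR). In the 9 libraries, with 1 sedentary female left, its log2 fold change was -0.49. The others that DESeq2 called were Dbi, the acyl-CoA binding protein, and Cd36, the main fatty acid uptake receptor of the heart. By edgeR Dbi was at -0.34 ± 0.10 (adjusted p = 0.0919) and Cd36 at -0.38 ± 0.10 (adjusted p = 0.063). In exercised females over males Abcd3 was at -0.08 ± 0.09, Fabp3 at -0.001 ± 0.09, Dbi at -0.02 and Cd36 at -0.05. For exercise Abcd3 was at 0.20 ± 0.09 in females and -0.19 ± 0.09 in males, and Fabp3 at 0.22 ± 0.09 and -0.24 ± 0.09. These exercise values rest on the same sedentary libraries as the sex difference by which the genes were called, so they are not independent of it. None of these exercise values or values in exercised hearts was called by edgeR.

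Among the enzymes that use acyl-CoA and the regulators, edgeR called 0 genes in any of the 6 comparisons, with at most 5 of the enzymes and 3 of the regulators at an unadjusted p under 0.05. The 5 enzymes were in sedentary females over males, where 18.4% of all genes were under it, as were 9.84% in exercised females over males. The regulators reached 3 in that sedentary comparison and in exercise in males (7.84% of all genes). DESeq2 called Ppargc1a in 2 comparisons, in which it called 25 and 866 genes over the whole table, and voom 0. Of 15 enzymes, 6 lay above and 9 below 0 in sedentary females over males, with a median of -0.02. Dgat2, which makes triglyceride, stood at 432 ± 22.3 CPM in exercised against 369.6 ± 29.0 CPM in sedentary females (0.23 ± 0.07, adjusted p = 1 by edgeR). Of 10 regulators 8 lay below 0 in sedentary females over males, with a median of -0.07. Of all genes 52.4% lay above 0 in that comparison. Ppara, the nuclear receptor that drives many fatty acid genes of the heart, stood at 22.3 ± 2.13 CPM in exercised against 31.4 ± 1.01 CPM in sedentary males (-0.50 ± 0.13, adjusted p = 0.567 by edgeR). Its coactivator Ppargc1a was at 85.2 ± 18.9 CPM in exercised against 134.7 ± 20.01 CPM in sedentary males (-0.66 ± 0.18, adjusted p = 0.588 by edgeR), one of the comparisons in which DESeq2 called it (adjusted p = 0.0392). For exercise in females Ppara was at 0.19 ± 0.13 and Ppargc1a at -0.05 ± 0.18. In sedentary females over males they were at -0.41 ± 0.13 and -0.60 ± 0.18 (adjusted p = 0.12 and 0.109 by edgeR), where DESeq2 also called Ppargc1a.

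**Figure D5:**
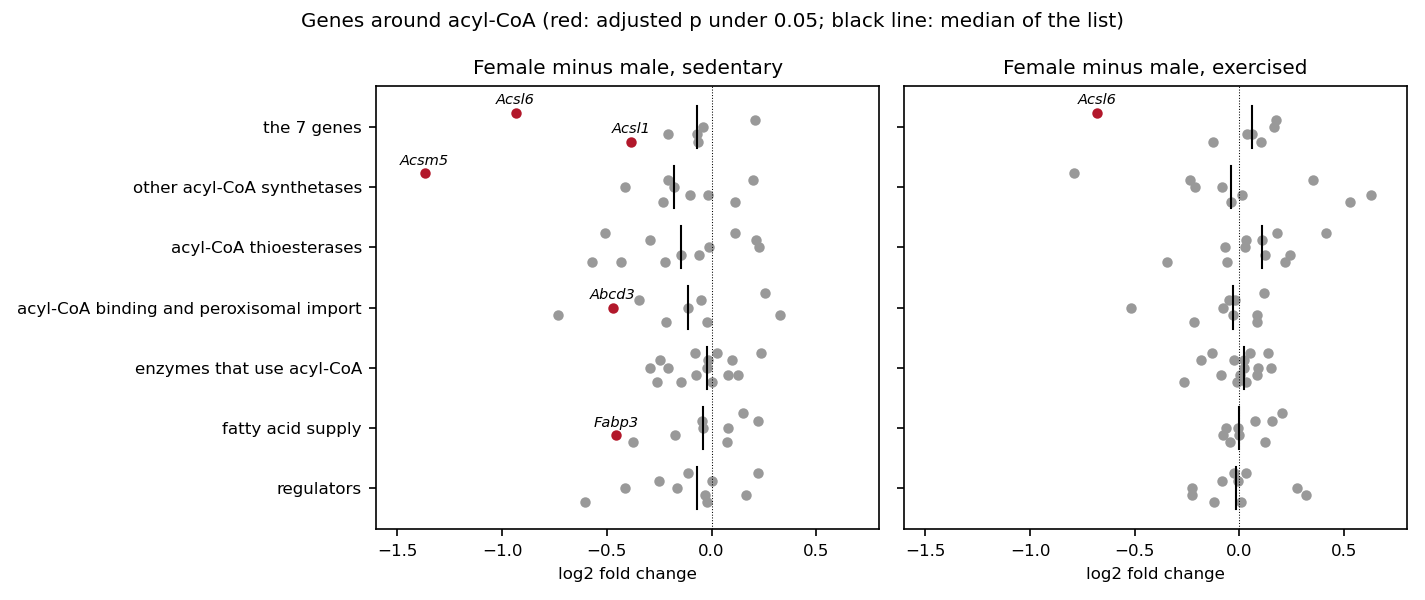
Log2 fold changes of females over males in sedentary (left) and exercised hearts (right) for the 7 genes and for 6 lists of genes around acyl-CoA, 1 point per tested gene, red and named where the adjusted p is under 0.05, with the median of each list as a black line. In sedentary hearts Acsl6, Acsl1, Acsm5, Abcd3 and Fabp3 are red, all below 0, and in exercised hearts Acsl6 is.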

How the data were processed

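Mouse hearts were compared by bulk RNA sequencing, with 12 libraries in 4 groups of 3 by sex and exercise. The authors deposited counts of reads per gene, not normalized. The submitters' processing notes name Trimmomatic 0.36, STAR 2.5.2b, the GRCm38 build and featureCounts from Subread 1.5.2. They do not say which annotation release was counted or whether strand was used. Symbols, coordinates and exon lengths come from GENCODE M21 on GRCm38, in which 55141 of 55401 identifiers were found.

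Counts were filtered with filterByExpr and scaled by the trimmed mean of M-values in edgeR 4.0.16 (R 4.3.3). One model of group means was fitted to all 12 libraries (8 residual degrees of freedom), with 6 contrasts tested by the robust quasi-likelihood test and Benjamini-Hochberg adjustment at 0.05 over 16213 genes. SE is the size of the log2 fold change divided by the square root of its F. Script and test were tested on simulated data. Pairs of libraries of 1 group differed by 9.33 to 34.7 chi-square per degree of freedom, more than repeat counts of 1 library would. This cannot tell whether 2 libraries came from different animals, and each was taken as 1 replicate. No pairing of libraries was used. Contrasts share groups, so a sex difference in sedentary hearts and the exercise effects are not independent.

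The 7 genes, the 6 gene lists, the marker lists and the alternatives were chosen with earlier results of these data known. Named beside the 7 were called members of a list, or else those of smallest p, of which the text gives a part, and the 3 genes of highest Pearson's r with each (log2 CPM, prior count 2). Alternatives were RLE scaling, no filter, a higher minimum (over 1 CPM in at least 3 libraries), DESeq2 1.42.0 and voom of limma 3.58.1 with sample weights. Others were fits of only the groups compared, mitochondrial rows removed, 9 libraries without the 3 that held Myl7, and each library left out. The fit with no filter also used edgeR's newer quasi-likelihood method, where the other edgeR fits used the legacy one.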

Additional observations from a re-analysis of the deposited data

How the results depend on the processing

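Of the log2 fold changes of the 7 genes, 795 values under the alternatives kept both direction and side of the threshold, 7 kept direction and lost the call, and 24 changed sign. The lost calls were those of Acsl6 and Acsl1 given in the results. No value that changed sign passed the test. No paired analysis was possible because the labels give no replicate number that 2 groups share. With 3 libraries a group and a median SE of 0.143 to 0.144 on the log2 scale per comparison of 2 groups, small changes were not detectable, and with 1 female left in the sedentary group of the 9 libraries that female is assumed to vary like the other libraries.

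Without 1 library, values that could change sign ran from -0.025 to 0.15 (Acsl3, exercise in females), from -0.372 to 0.011 (Acsl3, exercise in males), from -0.185 to 0.14 (Slc27a1, exercise in males) and from -0.169 to 0.027 (Acsl5, difference of the exercise effects). For exercise averaged over the sexes they ran from -0.021 to 0.04 for Acsl1, from -0.158 to 0.034 for Acsl3, from -0.008 to 0.078 for Acsl4, from -0.006 to 0.157 for Slc27a1 and from -0.01 to 0.03 for Slc27a4. For females over males they ran from -0.101 to 0.072 for Acsl4 and from -0.173 to 0.049 for Slc27a1 in sedentary hearts, and from -0.033 to 0.136 for Acsl3 and from -0.032 to 0.294 for Slc27a1 in exercised hearts. In the 9 libraries the values were -0.117 for Acsl3 (exercise in females), -0.003 for Acsl4 and -0.031 for Acsl6 (exercise averaged), and 0.081 for Acsl4 (females over males, sedentary).

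Counts of called genes over the whole table moved more than those of the 7. DESeq2 called 1 gene for exercise in females, 25 in males, 10 for the difference of the effects, 14 for their average, 866 for the sexes in sedentary and 167 in exercised hearts, against 0, 0, 0, 0, 358 and 26 by edgeR. In sedentary hearts the count was 14 in the 9 libraries. In exercised hearts it was 43 in the fit without a filter, which also changed the quasi-likelihood method, and 15 in the fit of the groups compared. Without 1 library the counts ran from 0 to 1 for exercise in females, for the difference and for the average, from 68 to 462 for sedentary and from 17 to 55 for exercised hearts. With the longest transcript or the coding length, shares in the summed level moved to 0.908% and 0.693% for Acsl3, 1.17% and 1.21% for Acsl4, 1.85% and 1.60% for Acsl5, and 2.77% and 2.43% for Slc27a4, and with the coding length to 17.8% for Slc27a1. The cause of these moves was not tested beyond the lengths themselves.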
